A study of Bos taurus with 18 samples.

Results

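The collagenase genes MMP1 (ENSBTAG00000015818) and MMP13 (ENSBTAG00000015059) and the ADAMTS-family genes ADAMTS5 (ENSBTAG00000000648) and ADAMTSL5 (ENSBTAG00000046263) were examined, 4 of the 36075 genes in the count table. They were taken by symbol, and their identifiers came from the study's lists of genes that it called with rbCAPG: MMP1, MMP13 and ADAMTSL5 from the epithelial list, and ADAMTS5 from the stromal list. The direction of those changes with rbCAPG is therefore not independent evidence. The changes with rbPDI are not fully independent of it either, since they use the same VC libraries. The libraries came from a 3D endometrium-on-a-chip. On one face of its porous glass membrane grew primary cattle endometrial epithelial cells (bEECs), bathed by flowing medium, and on the other face, in still medium, grew primary endometrial stromal cells (bESCs). For 24 h the flowing medium carried PBS as vehicle control (VC), 1 µg/mL of recombinant CAPG (rbCAPG) or 1 µg/mL of recombinant PDI (rbPDI), both proteins of bovine sequence, and RNA of either cell type was then sequenced. CAPG is an actin-capping protein and PDI a protein disulfide isomerase, both of which the conceptus secretes. Each of the 6 groups held 3 samples, 1 from each of 3 uterine tracts collected at an abattoir and judged late-luteal from the ovaries, and every device held both cell types of 1 animal. Replicate numbers 1 to 3 were taken to stand for these animals. The cells were primary cultures enriched by differential trypsinization, with purity judged by eye, so each library may hold RNA of other cells.

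Matrix metalloproteinases are zinc enzymes that are secreted as inactive precursors and cut proteins of the extracellular matrix. MMP1 (interstitial collagenase) and MMP13 (collagenase 3) can cut the intact triple helix of fibrillar collagen, the main scaffold of the endometrial stroma, and inflammatory cytokines are well-known inducers of both genes. ADAMTS5 is a secreted metalloproteinase that cuts the proteoglycans aggrecan and versican. ADAMTSL5 resembles these enzymes in its ancillary domains but has no protease domain, and it binds fibrillins of the microfibrils. In the RefSeq annotation of ARS-UCD2.0, another assembly than the one used for counting, MMP13 and MMP1 lie on the same chromosome with 2 genes, MMP12 and MMP3, between them.

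Libraries held between 10072851 and 44253149 counts, and the smallest was the bESC rbPDI library of animal 1. All 4 genes passed the filter on low counts, as did 17931 genes in all. Levels are given as CPM, the count divided by the library size after TMM scaling and multiplied by 1000000. Gene lengths of this build were not used here, so the CPM of a gene is compared between samples and not ranked against other genes. Sums of CPM over several genes, given below, are not corrected for length either, and single genes can carry them. Reads that matched several places were divided into fractions, and 16 of 18 values of MMP1 were fractional, against 9 of MMP13, 8 of ADAMTSL5 and 6 of ADAMTS5. MMP1 thus shared reads with other genes or loci in nearly every library. In bulk libraries, fewer cells of a type and less RNA per cell cannot be told apart.

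MMP13 was an epithelial transcript in these devices, at 161 ± 38.8 CPM (SD, n = 3) in bEECs with VC and at 0.502 ± 0.87 CPM (n = 3) in bESCs with VC. With rbCAPG its epithelial level was 2824 ± 1039 CPM and with rbPDI 1900 ± 734 CPM (n = 3 each). In the bEECs of animals 1, 2 and 3 it was 134, 144 and 205 CPM with VC, 3579, 1639 and 3254 CPM with rbCAPG, and 2211, 1063 and 2428 CPM with rbPDI. Every bEEC library with a protein lay above every VC library, and animal 2 gave the lowest value with either protein. Within animals, the level with rbCAPG was 26.8, 11.4 and 15.8 times that with VC, and with rbPDI 16.5, 7.38 and 11.8 times. The fitted log2 fold change in bEECs was 4.13 (SE 1.02) with rbCAPG and 3.56 (SE 1.00) with rbPDI. These sizes did not pass the quasi-likelihood test of edgeR (adjusted p = 0.112 and 0.132), and both passed when the animal was added to that edgeR fit as a block (adjusted p = 0.025 and 0.0363).

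In bESCs, MMP13 was low with every treatment, and it was at 0 counts in the VC libraries of animals 1 and 3. The VC libraries held 0, 73 and 0 counts, the rbCAPG libraries 87, 291 and 173 counts and the rbPDI libraries 24, 126 and 699 counts. In CPM these are 0, 1.51 and 0 with VC, 2.38, 5.4 and 3.99 with rbCAPG, and 2.09, 2.72 and 16.2 with rbPDI. All 6 libraries with a protein were above all 3 VC libraries, and the rbPDI library of animal 3 stood apart from the other two. A count of 0 allows up to 3 counts, or 0.132 CPM in animal 1 and 0.0643 CPM in animal 3. Against these floors, with the treated counts taken as exact, the level there was at least 18-fold and at least 62.1-fold higher with rbCAPG. With rbPDI it was at least 15.8-fold and at least 252-fold higher, on the same terms. In animal 2, where VC was above 0, it was 3.58 and 1.81 times the VC level. Neither difference passed the edgeR test over all genes (adjusted p = 1 with rbCAPG and 0.298 with rbPDI), nor with the animal as a block (adjusted p = 0.354 and 0.129). DESeq2 called the rbPDI difference (adjusted p = 0.0356) and not the rbCAPG difference (adjusted p = 0.436). The fitted log2 fold change with rbPDI was 3.70 (SE 1.06) with all libraries and 2.15 (SE 0.996) without the rbPDI library of animal 3.

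MMP1 was detected in both cell types. In bEECs it was 37.7, 27.8 and 25 CPM with VC, 194, 135 and 170 CPM with rbCAPG, and 234, 181 and 214 CPM with rbPDI in animals 1 to 3. The VC values were below all values with a protein, and the order of the animals was the same with both proteins. Within animals the level with rbPDI was 6.2, 6.51 and 8.55 times that with VC, and with rbCAPG 5.14, 4.86 and 6.78 times. MMP1 rose in bEECs with rbPDI, by a log2 fold change of 2.80 (SE 0.62, edgeR adjusted p = 0.0442), and this call was lost when any 1 of the 6 libraries compared was left out (edgeR adjusted p from 0.0877 to 0.244). With rbCAPG the log2 fold change was 2.46 (SE 0.61), which passed the edgeR test with the animal as a block (adjusted p = 0.0265) but not without it (adjusted p = 0.115).

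In bESCs the starting level of MMP1 differed widely between animals. It was 3.92, 50 and 10.6 CPM with VC, 49.5, 102 and 75.2 CPM with rbCAPG, and 208, 120 and 104 CPM with rbPDI. The VC library of animal 2 was above the rbCAPG library of animal 1, so VC and rbCAPG overlapped, whereas all rbPDI libraries were above all VC libraries. The level with rbPDI was 53.0, 2.41 and 9.8 times that with VC in animals 1 to 3, and with rbCAPG 12.6, 2.05 and 7.09 times, so animal 2 had the highest VC level and the smallest ratios. The log2 fold change with rbPDI was 2.74 (SE 0.62, edgeR adjusted p = 0.118), and it was called with the animal as a block (edgeR adjusted p = 0.0133). With rbCAPG it was 1.81 (SE 0.60, edgeR adjusted p = 1) and was not called with the block either (adjusted p = 0.162). Without the VC library of animal 2, MMP1 was called with rbCAPG at 3.35 (SE 0.468, edgeR adjusted p = 0.0391) and with rbPDI at 4.25 (SE 0.491, edgeR adjusted p = 0.00242). That fit dropped the highest VC level and kept the libraries of animal 2 with a protein, so it does not compare within animals. Without the VC library of animal 1 or 3 the values were 1.34 and 1.51 with rbCAPG and 2.23 and 2.41 with rbPDI. No omission of any other single library gave a call.

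ADAMTS5 was mainly stromal. In bESCs of animals 1, 2 and 3 it was 5.86, 26.2 and 11.6 CPM with VC, 28.8, 106 and 29.9 CPM with rbCAPG, and 29.3, 56.2 and 50.3 CPM with rbPDI. All libraries with a protein were above all VC libraries, the closest pair being the VC library of animal 2 and the rbCAPG library of animal 1, and animal 2 had the highest level in each group. Within animals the ratio to VC was 4.92, 4.03 and 2.59 with rbCAPG and 5.0, 2.15 and 4.35 with rbPDI. The log2 fold change was 1.91 (SE 0.50) with rbCAPG and 1.64 (SE 0.50) with rbPDI, neither called by edgeR without a block (adjusted p = 0.454 and 0.379) and both called with the animal as a block (edgeR adjusted p = 0.00478 and 0.00301). The rbCAPG library of animal 2 weighed on the first value, which was 1.01 (SE 0.412) without it. Without the VC library of animal 2 the values for ADAMTS5 were 2.63 (SE 0.525) with rbCAPG and 2.33 (SE 0.517) with rbPDI, neither called by edgeR (adjusted p = 0.083 and 0.098). With all libraries, DESeq2 called ADAMTS5 in bESCs with rbCAPG (adjusted p = 0.0202) and not with rbPDI (adjusted p = 0.0613).

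In bEECs, ADAMTS5 was low, at 20 to 69 counts per library. It was 0.604, 0.736 and 0.598 CPM with VC, 1.16, 1.37 and 1.67 CPM with rbCAPG, and 2.05, 1.67 and 1.85 CPM with rbPDI. The 3 groups did not overlap, although the highest rbCAPG and lowest rbPDI values are equal at the digits printed. The log2 fold change was 1.12 (SE 0.58, edgeR adjusted p = 0.763) with rbCAPG and 1.52 (SE 0.57, edgeR adjusted p = 0.39) with rbPDI. With the animal as a block, the rbPDI value was called by edgeR (adjusted p = 0.0188) and the rbCAPG value was not (adjusted p = 0.107). DESeq2 called neither (adjusted p = 0.0997 with rbPDI and 0.461 with rbCAPG).

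ADAMTSL5 differed from VC with the proteins in bEECs but was flat in bESCs. Its epithelial level was 7.16, 10.8 and 6.91 CPM with VC, 13.6, 23.9 and 22.1 CPM with rbCAPG, and 10.8, 21.2 and 26.1 CPM with rbPDI. The rbCAPG libraries all lay above VC, while the rbPDI library of animal 1 exceeded the VC library of animal 2 only beyond the digits printed. The ratio to VC within animals was 1.9, 2.22 and 3.2 with rbCAPG and 1.51, 1.97 and 3.78 with rbPDI. The log2 fold change was 1.26 (SE 0.31) with rbCAPG and 1.23 (SE 0.31) with rbPDI, with edgeR adjusted p = 0.112 and 0.0865, and both were called with the animal as a block (edgeR adjusted p = 0.00936 and 0.00989). Without the rbPDI library of animal 1, the rbPDI value was called without a block at 1.52 (SE 0.288, edgeR adjusted p = 0.02). Without any other single library it ran from 0.96 to 1.46 and was not called.

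In bESCs, ADAMTSL5 was 17.2, 17.1 and 27.5 CPM with VC, 16.5, 22.9 and 20 CPM with rbCAPG, and 16.5, 20.2 and 21.7 CPM with rbPDI. The 3 groups overlapped throughout. The log2 fold change was -0.06 (95% interval -0.71 to 0.59) with rbCAPG and -0.08 (95% interval -0.73 to 0.57) with rbPDI, so the intervals leave out a change of the size fitted in bEECs.

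**Figure D1:**
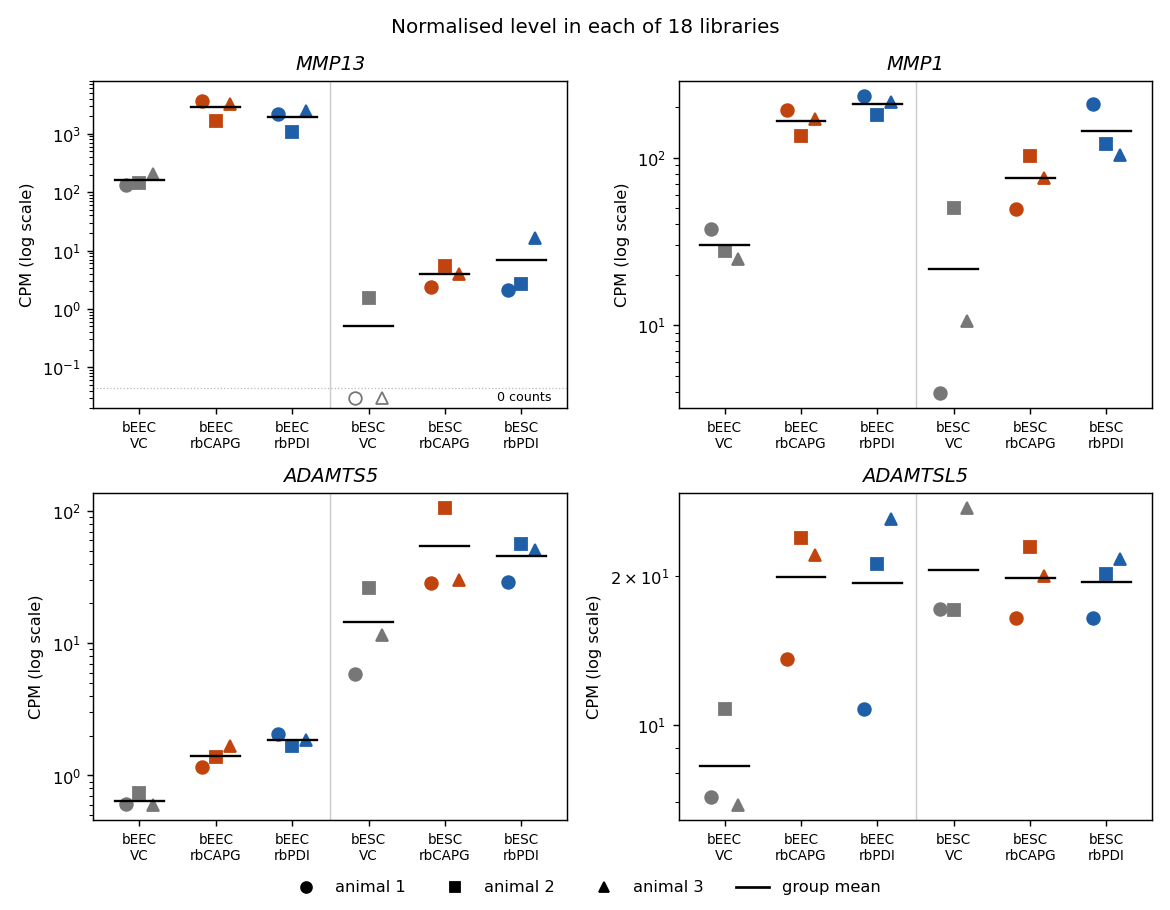
Level of MMP13, MMP1, ADAMTS5 and ADAMTSL5 in all 18 libraries, in CPM on a log axis, by cell type and treatment. Marker shapes stand for the 3 animals, black lines for the group means and open symbols at the lower edge for libraries with 0 counts. MMP13 separates bEECs from bESCs in every treatment, ADAMTS5 does so the other way round, and ADAMTSL5 is low only in bEECs with VC (8.28 CPM on average against 19.4 to 20.6 CPM in the other 5 groups).

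Counted over the 4 genes, edgeR called 0 with rbCAPG and 1 with rbPDI in bEECs, where 0.513% and 0.809% of all tested genes were called, and 0 with either protein in bESCs, where 0.0948% and 0.178% were called. At an unadjusted edgeR p under 0.05, 3 of 4 passed with rbCAPG and 4 of 4 with rbPDI in bEECs (7.21% and 8.34% of all genes), and 3 of 4 with each protein in bESCs (2.74% and 5.3%). DESeq2 called 3 and 3 in bEECs (1.53% and 2.17% of all genes) and 1 and 2 in bESCs (0.396% and 0.982%). With the animal as a block in edgeR the counts were 3 and 4 in bEECs (2.19% and 2.96% of all genes) and 1 and 2 in bESCs (0.48% and 1.05%). In bEECs, 4 of 4 genes were higher with no overlap between the treated and VC libraries with each protein, against 8.72% of all genes with rbCAPG and 8.06% with rbPDI. In bESCs this held for 2 of 4 with rbCAPG and 3 of 4 with rbPDI, against 3.02% and 4.1%. For the genes taken from each rbCAPG list, the rbCAPG counts repeat the choice. The comparisons of the 2 proteins with VC share the VC libraries.

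**Figure D2:**
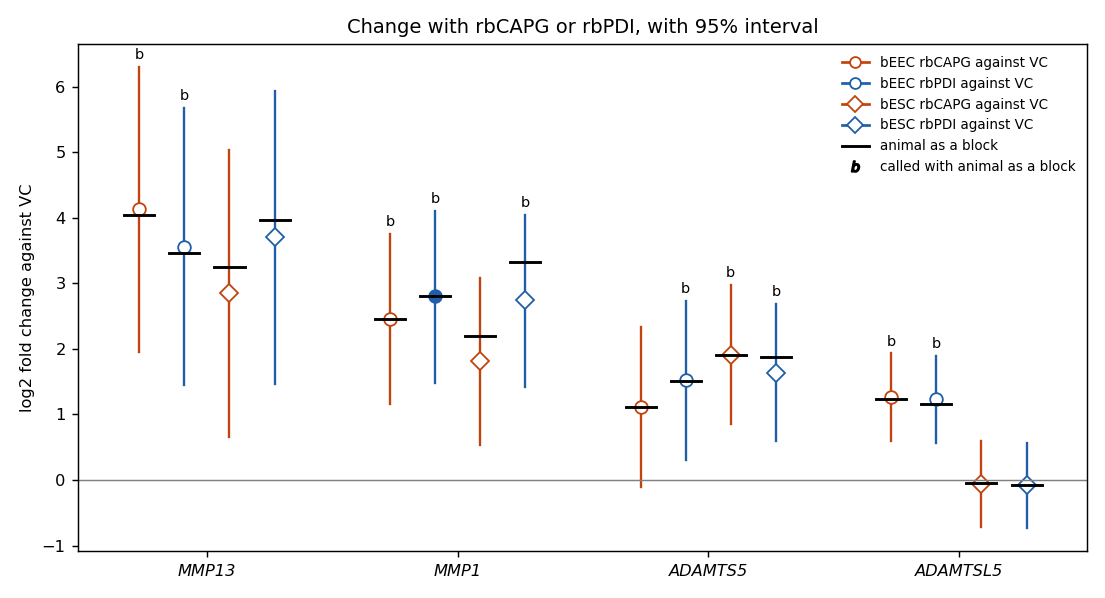
Log2 fold change against VC of the 4 genes in each cell type with each protein, with 95% intervals from the edgeR fit to all 18 libraries. Filled symbols mark calls (adjusted p under 0.05 and a log2 fold change above 1 in size), black dashes the value with the animal as a block, and the letter b a call in that fit. Only MMP1 in bEECs with rbPDI is filled, while 10 of the 16 values carry the letter b, and ADAMTSL5 in bESCs lies at 0.

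No difference between the proteins passed the test in any of the 4 genes. In bEECs the log2 fold change of rbPDI against rbCAPG was 0.33 for MMP1 (95% interval -0.90 to 1.57), -0.57 for MMP13 (-2.49 to 1.34), 0.40 for ADAMTS5 (-0.74 to 1.54) and -0.03 for ADAMTSL5 (-0.69 to 0.62). In bESCs it was 0.93 for MMP1 (-0.32 to 2.17), 0.85 for MMP13 (-1.11 to 2.81), -0.27 for ADAMTS5 (-1.29 to 0.75) and -0.02 for ADAMTSL5 (-0.67 to 0.63). The intervals of MMP13 are wide enough to hold a 2-fold difference in either direction. The samples of the 2 proteins overlapped except for MMP1 in bESCs and ADAMTS5 in bEECs, both higher with rbPDI, as were 1.83% of all genes in bESCs and 2.14% in bEECs. edgeR and DESeq2 each called 0 of the 17931 genes in this comparison in either cell type (0%), and at an unadjusted edgeR p under 0.05 there were 103 genes in bEECs, 319 in bESCs and none of the 4.

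The order of the group means set the genes apart. MMP13 was highest in bEECs with rbCAPG (2824 CPM) and rbPDI (1900 CPM), which overlapped, then in bEECs with VC (161 CPM), and far lower in bESCs with rbPDI (6.99 CPM) and rbCAPG (3.92 CPM), which overlapped, and with VC (0.502 CPM). MMP1 ran from bEECs with rbPDI (210 CPM) and rbCAPG (166 CPM) to bESCs with rbPDI (144 CPM), each overlapping the next. Below these, and without overlap between neighbours, came MMP1 in bESCs with rbCAPG (75.7 CPM) and bEECs with VC (30.2 CPM), and the latter overlapped bESCs with VC (21.5 CPM). ADAMTS5 was highest in bESCs with rbCAPG (54.8 CPM) and rbPDI (45.3 CPM), which overlapped, then bESCs with VC (14.5 CPM), and lowest in bEECs with rbPDI, rbCAPG and VC (1.86, 1.4 and 0.646 CPM), with no overlap between any of these neighbours. For ADAMTSL5 the 5 groups other than bEECs with VC overlapped, each with its neighbour.

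Between the cell types, MMP13 was higher in bEECs by a log2 fold change of 8.20 (SE 1.26, edgeR adjusted p = 5.72e-05) with VC, and by 9.49 with rbCAPG and 8.06 with rbPDI (edgeR adjusted p = 1.94e-05 and 5.93e-05). The fit with VC rests on bESC libraries of which 2 held 0 counts. ADAMTS5 was lower in bEECs, at -4.49 (SE 0.59, edgeR adjusted p = 1.17e-05) with VC, -5.28 with rbCAPG and -4.61 with rbPDI (edgeR adjusted p = 2.35e-06 and 7.39e-06). ADAMTSL5 was lower in bEECs with VC, at -1.31 (SE 0.31, edgeR adjusted p = 0.00264), and the cell types were level with rbCAPG (0.01, 95% interval -0.64 to 0.66) and rbPDI (-0.01, 95% interval -0.66 to 0.64). MMP1 was not called between the cell types with VC (0.48, edgeR adjusted p = 0.516), rbCAPG (1.13, adjusted p = 0.122) or rbPDI (0.54, adjusted p = 0.469). Without the bESC VC library of animal 2, MMP1 was called higher in bEECs with VC, at 2.01 (SE 0.438, edgeR adjusted p = 0.00185). Without any other single library it ran from -0.01 to 0.6 and was not called. Calls of this kind were common, with 38.5% of all genes called between the cell types with VC, 38.9% with rbCAPG and 37.3% with rbPDI.

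Whether the change with a protein differed between bEECs and bESCs was tested by an interaction term. ADAMTSL5 had the clearest difference, with a log2 change larger in bEECs by 1.32 (95% interval 0.40 to 2.25) with rbCAPG and by 1.31 (0.38 to 2.23) with rbPDI. It did not pass the adjustment over all genes in edgeR without a block (adjusted p = 1 and 0.683), with the animal as a block (adjusted p = 0.174 and 0.12) or in DESeq2 (adjusted p = 0.272 and 0.195). For MMP1 the interaction was 0.65 (-1.10 to 2.40) and 0.06 (-1.69 to 1.80), for MMP13 1.29 (-1.58 to 4.15) and -0.14 (-2.82 to 2.54), and for ADAMTS5 -0.79 (-2.40 to 0.81) and -0.12 (-1.77 to 1.53), with rbCAPG and rbPDI in that order. None of the 4 genes was called, where 0.0669% of all genes were called with rbCAPG and 0.0948% with rbPDI.

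RNA of the other cell type was measured beside the low members, MMP13 in bESCs and ADAMTS5 in bEECs. The summed level of the 200 genes with the largest bESC to bEEC ratio was, in bEECs with VC, 0.596%, 0.999% and 0.523% of its level in the bESCs of the same device, 1.51%, 0.929% and 1.67% with rbCAPG, and 1.58%, 1.02% and 1.44% with rbPDI. It was thus higher with a protein in animals 1 and 3, and changed little in animal 2. In animal 1 with rbPDI the bEEC sum was 794 CPM, against 572 CPM with VC. The bESC sum it was divided by was 50384 CPM, against 96056 CPM with VC, so that share also reflects a low divisor. In the other devices the bEEC sum itself was 1706 CPM in animal 1 with rbCAPG. It was 2476 and 2203 CPM in animal 3 with rbCAPG and rbPDI, against 844 CPM with VC. In animal 2 it was 1232 and 1391 CPM, against 1400 CPM with VC. ADAMTS5 in bEECs was 10.3%, 2.81% and 5.17% of its level in the bESCs of the same device with VC, 4.02%, 1.3% and 5.57% with rbCAPG, and 6.98%, 2.97% and 3.68% with rbPDI. These shares were above that of the summed stromal genes in all 9 devices. Those 200 genes were picked in these same libraries for the largest ratio, which sets their share low. The order therefore allows no conclusion about stromal RNA in the bEEC libraries. With 50 genes in place of 200 the stromal share was 0.186% to 0.63%. The part of stromal RNA in the ADAMTS5 difference between bEEC groups was not tested.

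Summed epithelial genes in bESCs were 0.356%, 0.0589% and 0.104% of their bEEC level with VC, 0.18%, 0.0783% and 0.0952% with rbCAPG, and 0.121%, 0.128% and 0.158% with rbPDI. MMP13 in bESCs was 0%, 1.05% and 0% of its bEEC level with VC, 0.0665%, 0.329% and 0.123% with rbCAPG, and 0.0944%, 0.256% and 0.666% with rbPDI. This was below the summed epithelial genes in 4 of 9 devices, the 2 at 0 counts among them, and above in 5. The epithelial genes were picked from these same libraries in the same way. With 50 genes in place of 200 the median epithelial share fell to 0.00373% with rbCAPG and 0.0107% with rbPDI, so this background depends on the genes summed. The part of epithelial RNA in MMP13 of bESCs was not tested. The bESC rbPDI library of animal 1 had a summed stromal level of 50384 CPM against 96056 to 161476 CPM in the other 8 bESC libraries. Without it, the log2 fold change with rbPDI in bESCs was 2.37 for MMP1, 4.11 for MMP13 and 1.86 for ADAMTS5, none called by edgeR (adjusted p = 0.31, 0.29 and 0.375).

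**Figure D3:**
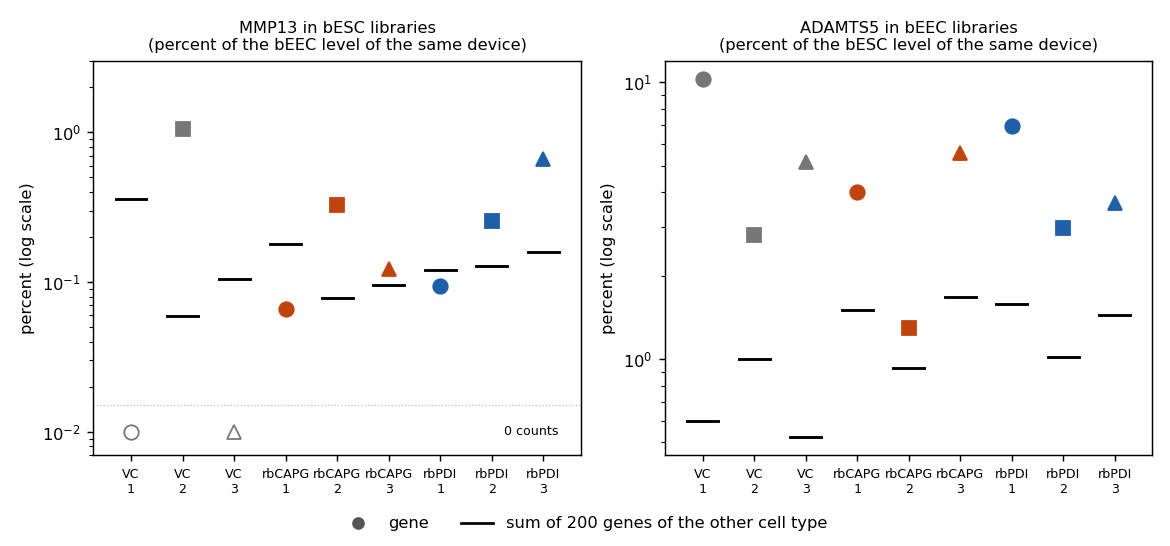
MMP13 in bESCs as a percent of its level in the bEECs of the same device, and ADAMTS5 in bEECs as a percent of its level in the bESCs of the same device, for the 9 devices. Black lines show the same percent for the sum of the 200 genes most particular to the other cell type. These genes were picked in these same libraries, which sets the lines low. ADAMTS5 lies above the line in all 9 devices (1.3% to 10.3%), and MMP13 in 5 of 9.

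Markers of cell types were checked against the labels as far as identifiers allowed. Only 19 of 41 markers (46.3%) had an identifier, and they had one because the study called them with rbCAPG, so the check is void as a whole and the values are given as levels only. The sum of 7 of 16 stromal markers was 11 to 21.2 CPM in bEECs with VC, 27.8 to 66.5 CPM with rbCAPG and 19.9 to 52.4 CPM with rbPDI, and 313 to 510 CPM over the bESC libraries. The sum of 5 of 12 epithelial markers was 681 to 1522 CPM in bEECs with VC, 2989 to 4293 CPM with rbCAPG and 2825 to 4345 CPM with rbPDI. In bESCs the epithelial sum was 3.53 to 4.89 CPM with VC, 4.96 to 8.91 CPM with rbCAPG and 4.0 to 7.79 CPM with rbPDI. The rbCAPG libraries thus lay above the VC libraries in this sum, and the rbPDI libraries overlapped them. Immune markers (4 of 7) summed to 25.1 to 41.3 CPM in bEECs with VC, 91.9 to 142 CPM with rbCAPG and 95.2 to 162 CPM with rbPDI. In bESCs the immune sum was 5.33 to 24.1 CPM with VC, 9.71 to 26.0 CPM with rbCAPG and 11.7 to 30.5 CPM with rbPDI. Endothelial markers (3 of 6) summed to 757 to 1287 CPM in bEECs with VC, 3581 to 4226 CPM with rbCAPG and 3035 to 6584 CPM with rbPDI, and in bESCs to 252 to 340 CPM, 449 to 735 CPM and 381 to 575 CPM. In bESCs the epithelial marker AGR2 was at 0 to 0.522 CPM but CDH26 at 2.17 to 6.12 CPM, and the immune marker AIF1 was at 0 to 0.082 CPM but CD14 at 4.35 to 20 CPM. Log2 fold changes in bESCs with rbCAPG and rbPDI were 1.29 and 2.01 for MUC1 and 2.37 and 2.82 for OCLN. AGR2 (2.03 and 3.33) and CDH26 (0.42 and 0.05) were above 0 too, and RBM47 (-2.58 and -2.97) was below. Of these, edgeR called only OCLN with rbPDI (adjusted p = 0.0402), where 0.178% of all genes were called. Levels there were at most 1.04 CPM for MUC1, 3.24 CPM for OCLN and 0.686 CPM for RBM47. The stromal marker HAND2 was at 0.0604 to 0.626 CPM in bEECs. Single genes carried some of these sums in bEECs. ESM1 made up nearly all of the endothelial sum, at means of 1014 CPM with VC and 3955 CPM with rbCAPG, while TEK was at 0.0727 and 0.585 CPM. AGR2 made up most of the epithelial difference, at 465 and 2877 CPM, while OCLN (93.2 and 103 CPM) and RBM47 (94.6 and 105 CPM) had log2 fold changes of 0.15 each. The part of other cells in the differences of the 4 genes was not tested.

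Genes around the collagenases were read from fixed lists. None of the other symbols listed had an identifier: 18 for matrix metalloproteinases, 23 for the ADAMTS family and 6 for inhibitors such as the TIMPs. They were not analysed here. Of 6 genes of plasminogen activation, the protease cascade that can activate collagenase precursors, 3 had one, and all 3 were higher in bEECs with each protein with no overlap, at a median log2 fold change of 1.76 with rbCAPG and 2.11 with rbPDI, against 0.02 and -0.01 over all genes. No overlap held for 8.72% and 8.06% of all genes. The identifiers come from genes that the study called with rbCAPG against these VC libraries, so neither the counts nor the medians are independent evidence. With rbCAPG, 3 of the 3 passed at an unadjusted edgeR p under 0.05 (7.21% of all genes) and 3 were called by DESeq2 (1.53%). edgeR called 0 of the 3 with rbCAPG and 2 with rbPDI, against 0.513% and 0.809% of all genes. These were PLAT (tissue plasminogen activator), at 2.27 (SE 0.48, edgeR adjusted p = 0.0312), and PLAU (urokinase), at 2.11 (SE 0.48, edgeR adjusted p = 0.0496). PLAT was not called without the VC library of animal 1 or 3 or the rbPDI library of animal 2 or 3 (edgeR adjusted p from 0.0909 to 0.21), and PLAU not without any VC library or the rbPDI library of animal 1 or 2 (edgeR adjusted p from 0.071 to 0.209). With the animal as a block, edgeR called 2 of the 3 with rbCAPG and 3 with rbPDI (2.19% and 2.96% of all genes). The urokinase receptor PLAUR was at 1.77 (SE 0.45, edgeR adjusted p = 0.0853) with rbPDI. Without the VC library of animal 2, PLAT was called with rbCAPG too, at 2.80 (edgeR adjusted p = 0.0191). Without any other single library its rbCAPG value ran from 1.91 to 2.37 and was not called. In bESCs 0 of the 3 were called by edgeR with either protein, at medians of 0.38 and 1.09 with rbCAPG and rbPDI (0.0948% and 0.178% of all genes called). DESeq2 called 0 and 1 of them (0.396% and 0.982% of all genes).

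Of 17 matrix proteins and partners, 7 had an identifier, again because the study called them with rbCAPG, which fixes their direction there and bears on the rbPDI values through the shared VC libraries. In bEECs all 7 were higher with rbCAPG with no overlap (median 1.42), and 4 of 7 with rbPDI (median 1.41), against 8.72% and 8.06% of all genes. In bESCs none was without overlap (medians 0.09 and 0.08), where 3.02% and 4.1% of all genes were higher with no overlap. edgeR called 1 of the 28 values, PCOLCE2, an enhancer of procollagen processing, in bEECs with rbPDI at 1.70 (SE 0.36, edgeR adjusted p = 0.0307), where 0.809% of all genes were called. That call was lost without the VC library of animal 1 or 3 or the rbPDI library of animal 2 or 3 (edgeR adjusted p from 0.0998 to 0.207). In bEECs, the block raised the count to 5 of 7 with rbCAPG and 2 of 7 with rbPDI (2.19% and 2.96% of all genes), and DESeq2 called 7 and 3 (1.53% and 2.17%). Versican (VCAN), a substrate of ADAMTS5, was at 1.65 (SE 0.50, edgeR adjusted p = 0.242) in bEECs with rbCAPG and at 1.41 (SE 0.50, adjusted p = 0.329) with rbPDI. Without the rbCAPG library of animal 3 its rbCAPG value was 0.96 (edgeR adjusted p = 1), and without the rbPDI library of animal 3 its rbPDI value was 0.90 (adjusted p = 0.94). SRPX2 was at 1.78 and 1.70 and the elastic fibre protein EMILIN1 at 1.52 and 1.49, with edgeR adjusted p from 0.105 to 0.195. Without the bEEC VC library of animal 2 both were called, SRPX2 at 2.68 and 2.60 and EMILIN1 at 2.19 and 2.17 (edgeR adjusted p from 0.00774 to 0.0491). The VC libraries left, of animals 1 and 3, held only 11 and 11 counts of SRPX2 and 16 and 8 of EMILIN1. The library left out had the highest stromal share among bEECs with VC, at 0.999%. Without any other single library neither gene was called, and values went down to 1.48 and 1.18 for SRPX2 and 1.15 and 1.12 for EMILIN1. Most of these matrix genes are stromal: VCAN had a mean of 2.3 CPM in bEECs with VC and 102 CPM in bESCs with VC, and the part of stromal RNA in their bEEC values was not tested. Of 10 other metalloproteinases, ADAM19 alone had an identifier, at 1.46 (SE 0.42, edgeR adjusted p = 0.193) in bEECs with rbCAPG and 1.00 (SE 0.42, adjusted p = 0.481) with rbPDI, and at -0.12 and -0.23 in bESCs. With the animal as a block, its rbCAPG value in bEECs was called by edgeR (adjusted p = 0.0272).

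**Figure D4:**
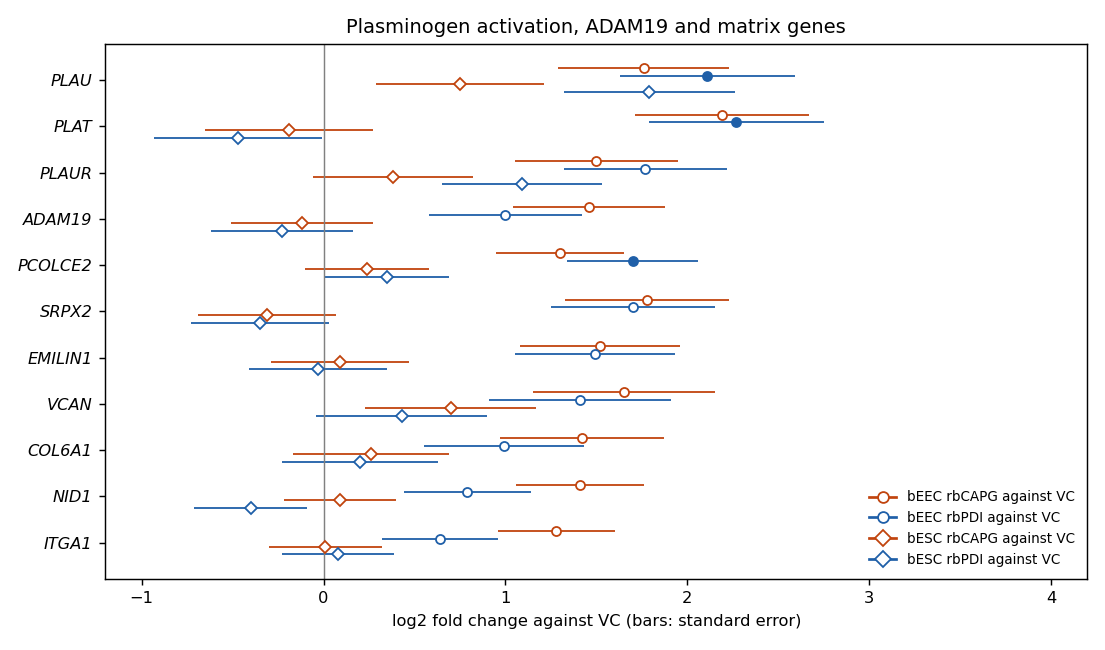
Log2 fold change against VC, with its SE, of the 11 genes of plasminogen activation, other metalloproteinases and matrix proteins that had an identifier, in each cell type with each protein. Filled symbols were called by edgeR: PLAT, PLAU and PCOLCE2 in bEECs with rbPDI. The bEEC values lie between 0.64 and 2.27 and the bESC values between -0.47 and 1.79.

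Likeness of pattern was measured as Pearson's r of log2 CPM over the 18 libraries after the mean of each cell type was taken out, among genes with a symbol. Those genes are ones the study called with rbCAPG, so the candidates were selected for a change with that protein. The points share animals, treatments and devices, so r is a description. Among them MMP1 was most like TNIP1 (r = 0.899), BIRC3 (0.89) and IL1R2 (0.882), which ranked 3, 6 and 10 among all 17930 other genes tested. MMP13 was most like IER3 (0.912), BIRC3 (0.894) and PTGS2 (0.893), the inducible cyclooxygenase, at ranks 1, 4 and 5. ADAMTS5 was most like NOS2 (0.941), the inducible nitric oxide synthase, PDE4B (0.934) and TNIP1 (0.894), at ranks 1, 3 and 10. ADAMTSL5 was most like GALNT7 (0.921), CFTR (0.907) and PLAT (0.902), at ranks 2, 3 and 4. TNIP1 and BIRC3 each appeared for 2 of the genes, and no gene named for ADAMTSL5 appeared for another. With a smaller prior count (0.5 in place of 2), 3 of these 3 genes stayed for ADAMTS5, 2 for MMP1 and for ADAMTSL5, and 1 for MMP13.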

How the data were processed

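RNA of 18 samples was amplified with a SMART-Seq kit and read as paired ends. Per the labels and the paper's methods, the authors used Trimmomatic for trimming, STAR for alignment to ARS-UCD1.3 and featureCounts for Ensembl genes, dividing reads with several matches or several genes into fractions. Tool versions and a strand option are not given in the sources used here. The deposited values are therefore estimated counts, not normalized (23.3% were not whole). All columns were used (0 left out).

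Values were rounded to whole numbers. Low genes were removed by filterByExpr over the 6 groups (17931 left). edgeR 4.0.16 (R 4.3.3, TMM) was fitted by quasi-likelihood to all 18 samples with 6 group means. P-values were adjusted over all tested genes (Benjamini-Hochberg), and calls needed an adjusted p under 0.05 and a log2 fold change above 1 in size. The SE is the absolute log2 fold change over the square root of F, and 95% intervals use 12 residual and 4.36 prior degrees of freedom. Where VC libraries held 0 counts, bounds used a floor of 3 counts per library. Such floors cover counting error of the VC library only, and the treated counts were taken as exact. Totals ran from 10072851 to 44253149 counts. The procedure was tested on simulated data. An exact two-sided permutation test of 3 samples against 3 has a smallest p of 0.1, so none was used.

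Replicate numbers were taken to mark the animal, since the paper gives 3 tracts, 1 animal per device and numbered biological replicates, and libraries with the same number deviated together (mean r = 0.481 within bEECs, 0.396 within bESCs and 0.175 between them, all above 0). The main fit held no term for the animal, so differences between animals stayed in its residual spread. The animal within cell type was therefore an alternative block. Other alternatives were DESeq2 1.42.0 (Wald test, local fit), its size factors in edgeR, other filters, fits to fewer samples, unrounded values, each library left out in turn, 50 genes in place of 200 in the summed levels and another prior count.

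The 4 genes and the lists (matrix metalloproteinases, ADAMTS family, inhibitors, plasminogen activation, other metalloproteinases, matrix proteins, and stromal, epithelial, immune and endothelial markers) were chosen with earlier results of these data known. The text names the 4 genes, the 3 most alike genes of each, and up to 4 genes per list, by number of calls and then by the smallest p with rbPDI. The markers named singly were picked after seeing their values. Symbols came from the study's supplementary lists (245 identifiers, 190 with a symbol), and 0 identifiers matched the reference gene table, which served only for the order of MMP13 and MMP1. No sequence or coordinate is given for that reason. One gene of the plasminogen activation list is not reported here. The proteomics data were not analysed here.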

Additional observations from a re-analysis of the deposited data

How the results depend on the processing

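The precision is limited by 3 animals per group, and by few reads of MMP13 in bESCs and ADAMTS5 in bEECs. Where an alternative changed a count of called genes, the cause was not tested. Of the 4 genes, edgeR called 0 in bEECs with rbCAPG, but 3 were called by DESeq2, 2 without a filter on low counts, 2 in the fit to one cell type, 2 in the fit to 6 samples and 3 with the animal as a block. In bEECs with rbPDI it called 1, against 3, 2, 3, 2 and 4 in the same order, and 0 to 1 without 1 library. In bESCs with rbCAPG it called 0, against 1 by DESeq2 and 1 with the block, and 0 to 2 without 1 library. In bESCs with rbPDI it called 0, against 2 by DESeq2, 1 without a filter and 2 with the block, and 0 to 2 without 1 library. Both counts of 2 came without the bESC VC library of animal 2, where the other VC libraries held 0 counts of MMP13, so no fold change of MMP13 is given for that fit.

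The calls over all genes against VC moved too: 92 and 145 in bEECs with rbCAPG and rbPDI became 275 and 389 with DESeq2 and 392 and 531 with the animal as a block, and 17 and 32 in bESCs became 71 and 176, and 86 and 189. In the fits to one cell type and to 6 samples they went up to 152 and 290, and 130 and 210, in bEECs and down to 1 and 1, and 0 and 3, in bESCs. Without a filter on low counts they were 123 and 216 in bEECs and 30 and 54 in bESCs. The block ended no call of the 4 genes, and changed no call of theirs other than those given in the report.

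Values near 0 changed sign. ADAMTSL5 between bEECs and bESCs with rbCAPG was -0.02 with the block, and with rbPDI 0.04 with DESeq2, with its size factors and without a filter, and 0.0 in the fit to 6 samples. The interaction of MMP1 with rbPDI was -0.51 with the block. With 1 library left out, ADAMTSL5 in bESCs ran from -0.19 to 0.23 with rbCAPG and from -0.23 to 0.18 with rbPDI. For rbPDI against rbCAPG the ranges were -0.31 to 0.25 (ADAMTSL5 in bEECs), -0.69 to 1.25 (MMP13 in bESCs), -0.61 to 0.62 (ADAMTS5 in bESCs) and -0.16 to 0.09 (ADAMTSL5 in bESCs). Between cell types they were -0.01 to 2.01 (MMP1 with VC), -0.14 to 0.21 (ADAMTSL5 with rbCAPG) and -0.27 to 0.28 (ADAMTSL5 with rbPDI). Interactions ranged from -0.89 to 1.13 (MMP1) and -1.52 to 0.11 (ADAMTS5) with rbCAPG, and from -1.45 to 0.56 (MMP1), -0.55 to 1.41 (MMP13) and -0.82 to 0.27 (ADAMTS5) with rbPDI. Of the values of the 4 genes recomputed under other settings, 289 kept direction and call, 29 passed the threshold and 6 changed sign. With 1 library left out, 263 values of these genes kept both, 4 passed, 6 no longer passed and 34 changed sign. Genes of the lists are not in these counts, and calls of PLAT, PLAU and PCOLCE2 in bEECs with rbPDI were also lost in such fits.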
